A study of Mus musculus with 8 samples.

Results

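Interferon response genes are genes that cells switch on when an interferon binds its receptor, or directly when they sense foreign nucleic acid. The 36 genes described here are a given list of symbols, and they were looked up by symbol in the expression table. All 36 were found among its 23951 genes, and all 36 were among the 12084 genes that passed the filter on low values (2 or more of the 8 libraries with FPKM of 1 or above). They comprise 3 transcription factors of the response, 4 sensors of foreign nucleic acid, 5 members of the oligoadenylate synthetase (OAS) family, 3 IFIT genes, 5 genes of the ISG15 system and TRIM ligases, 4 genes of PARP enzymes and their partner Dtx3l, 7 other antiviral effectors and 5 other induced genes.

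RNA was sequenced from crypts of the mouse jejunum, the middle part of the small intestine, in 3 groups. Every mouse carried BRAF-V600E f/+, a conditional allele whose BRAF kinase keeps MAPK signalling on, together with Villin-CreER(T2). The Villin promoter drives this recombinase in the intestinal epithelium, where tamoxifen activates it, so other cells of a crypt preparation are not targeted. The group BRAF (3 libraries) had no further deletion, SMAD4KO_BRAF (3 libraries) was also Smad4 f/f, and CDX2KO_BRAF (2 libraries) was also Cdx2 f/f. All groups received tamoxifen on 4 consecutive days and were collected 1 day later. The crypts were released with 3 mM EDTA and passed through a 70 micron filter. Ages are not in the labels, which also do not say that the libraries come from separate animals. A p-value here therefore speaks only of the spread among these libraries, which may be technical. By Y-linked genes, BRAF and SMAD4KO_BRAF each hold libraries of male and of female mice, so not all libraries within these 2 groups share an animal. Values are FPKM, reads per kilobase of transcript scaled for the depth of the library. Library numbers are those of the table's columns, in whose order values are given. Differences are of log2(FPKM + 1), which understates changes at low FPKM, and stand in brackets with ± 1 standard error. They were tested with limma and adjusted by the Benjamini-Hochberg method over 12084 genes, and a gene is called where its adjusted p is under 0.05.

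Interferons of type I (interferon alpha and beta) and type III (interferon lambda) bind different receptors, and both lead to a complex with STAT2 and IRF9 that enters the nucleus. That complex binds the interferon-stimulated response element, a DNA motif in the promoters of many of these genes, and the products block viral replication, mark proteins with the ubiquitin-like ISG15, and raise the cell's own sensors and transcription factors. Intestinal epithelial cells respond to interferon lambda in particular, and they keep a low level of the response without infection.

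The core of that element is shown first because it is a feature of sequence that the list did not use. Promoter windows from RefSeq (build GRCm38.p6, 250 bases before to 50 bases after the start, 300 bases in all) were at hand for 26 of the 36 genes. The core searched was GAAANNGAAA, or TTTCNNTTTC on the other strand, where N is any base. A gene was counted if any of its windows held a match. The core was present in 12 of the 26 genes (46.2%) and in 3.99% of all 27025 gene symbols with a window. In the bases before the start it was present in 9 of 26 (34.6%), against 3.46% of all these symbols. The stretches below come from 5 of those 9 genes and are on the strand of the gene, with the matches in capitals. Isg15 holds 3 overlapping matches, Bst2 and Oas1a hold 2 each, and Ifit3 holds 2 on the opposite strand before its start, of which the one nearer the start is shown.
Isg15: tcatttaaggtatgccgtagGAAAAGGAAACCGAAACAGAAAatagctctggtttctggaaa
Bst2: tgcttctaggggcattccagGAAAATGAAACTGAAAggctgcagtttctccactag
Oas1a: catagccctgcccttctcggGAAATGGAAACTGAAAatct
Oas3: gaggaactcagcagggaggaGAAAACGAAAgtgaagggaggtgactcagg
Ifit3: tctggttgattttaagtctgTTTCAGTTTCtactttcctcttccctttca
These lie at chr4:156200855-156200916 (minus strand), chr8:71537567-71537622 (minus), chr5:120907526-120907565 (minus), chr5:120777705-120777754 (minus) and chr19:34583387-34583436 (plus). Counted from the start of the gene, the capitals span bases -78 to -57 in Isg15, -130 to -115 in Bst2, -20 to -5 in Oas1a, -75 to -66 in Oas3 and -122 to -113 in Ifit3. The gamma-activated site TTCNNNGAA, a motif of interferon gamma signalling, reads the same on both strands. It was present in the windows of 4 of the 26 genes (15.4%), namely Oas1a, Ifit2, Bst2 and Eif2ak2. Of all gene symbols 9.55% held it. A match to these letters is a description of the window and does not show that a factor binds there.

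The targeted genes were read first. Smad4, which carries TGF-beta and BMP signals into the nucleus, stood at 42.5, 47.0 and 42.4 FPKM in BRAF, 10.7, 8.38 and 7.66 in SMAD4KO_BRAF and 40.1 and 35.3 in the libraries labelled CDX2KO_BRAF. It fell in SMAD4KO_BRAF against BRAF (-2.19 ± 0.13, adjusted p = 0.00163). Cdx2, a homeobox factor of intestinal identity, had an FPKM of 64.2, 82.6 and 80.1 in BRAF, 75.1, 75.1 and 93.1 in SMAD4KO_BRAF and 155 and 121 in the libraries labelled CDX2KO_BRAF. It was higher, not lower, in these 2 libraries against BRAF (0.86 ± 0.18, adjusted p = 0.0213), a call that ended without BRAF libraries 0 or 2 or either labelled CDX2KO_BRAF library (adjusted p 0.0508 to 0.137). The label is therefore not borne out by this value, which covers the whole gene and does not show whether the floxed part is read. These 2 libraries are called by their label throughout, and the directions given for them depend on it. Library sums of FPKM lay between 431269 and 595547, 10924 to 11570 genes reached an FPKM of 1, and the relative depth, read from the steps between low values, ranged from 0.712 to 1.45 with BRAF library 0 set to 1.

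All 36 genes had their lowest group mean in SMAD4KO_BRAF, an intermediate mean in BRAF and their highest mean in the libraries labelled CDX2KO_BRAF. Over all genes tested that order held for 2505 of 12084 (20.7%). The median of the 36 group means was an FPKM of 10.8 in SMAD4KO_BRAF, 18.2 in BRAF and 42.9 in the libraries labelled CDX2KO_BRAF. Ifit2 was the lowest and Lgals3bp the highest of the 36 in each group. In 14 genes the 3 groups occupied separate ranges, with no library of one group inside the range of another. These were Irf7, Ddx58, Ifih1, Dhx58, Oas1a, Oas3, Oasl2, Isg15, Trim30a, Parp9, Parp12, Parp14, Cmpk2 and Ifi44. The same count was not made over all genes, so how common such separate ranges are in general is not known here.

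**Figure D1:**
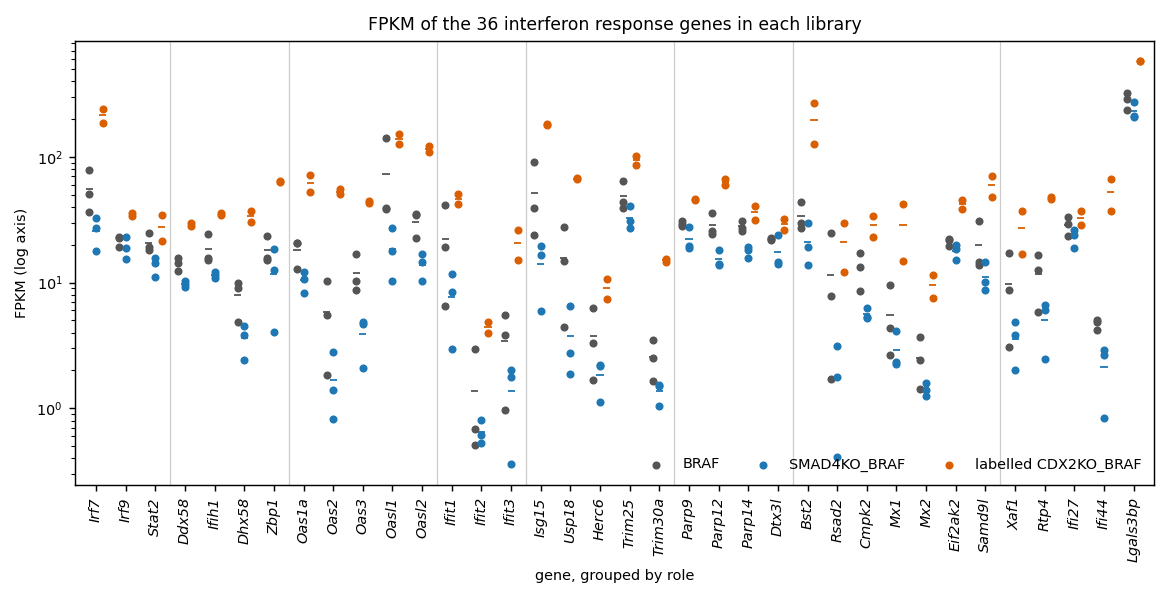
FPKM of each of the 36 genes on a log axis, with 1 point per library, a short line at each group's mean and grey lines between the role groups. The libraries labelled CDX2KO_BRAF lie highest for 31 of the 36 genes, and SMAD4KO_BRAF has the lowest mean for all 36.

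The first comparison, SMAD4KO_BRAF against BRAF, asked what deletion of Smad4 adds in crypts with active BRAF. The list was lower in value throughout, although no single gene passed the test. All 36 log2 differences were negative, from -1.76 to -0.19 with a median of -0.72, while the median over all genes was -0.01. The ratio of mean FPKM ranged from 0.154 for Rsad2 to 0.879 for Irf9 with a median of 0.531, and it was under 0.5 for 17 genes. In this comparison 0.0248% of all genes were called higher and 0.0497% lower. Of the 36 genes none was called, and the smallest adjusted p was 0.179, shared by Oas3, Oasl2, Parp12 and Parp14. At an unadjusted p under 0.05, 20 of the 36 were lower, as were 9.05% of all genes tested. In 16 of the 36 all SMAD4KO_BRAF libraries lay below all BRAF libraries, which held for 10.4% of all genes. With limma's library weights, which give less weight to libraries that vary more, 13 of the 36 were called lower. Of all 12084 genes 655 were called lower in that setting, in place of 6, and 414 higher, in place of 3. The largest weights were those of BRAF library 2 (3.47) and SMAD4KO_BRAF library 2 (2.09). With sex added to the model 1 of the 36, Parp12, was called lower, as were 67 of all 12084 genes.

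The libraries labelled CDX2KO_BRAF were compared with BRAF, a comparison designed to ask what deletion of Cdx2 adds. All 36 log2 differences were positive, from 0.20 to 3.18 with a median of 1.44, while the median over all genes was 0.02. Mean FPKM was more than 2-fold higher for 25 of the 36 genes, and up to 11.1-fold higher for Ifi44. In this comparison 6.89% of all genes were called higher and 7.21% lower. Of the 36 genes 23 rose and none fell. Both labelled libraries lay above all BRAF libraries in 31 of the 36, which held for 25.7% of all genes, and the other 5, Stat2, Oasl1, Rsad2, Xaf1 and Ifi27, overlapped. The count of 23 fell to 7 without either labelled CDX2KO_BRAF library, to 14 without BRAF library 2 and to 15 with no filter on low values. Higher calls over all genes fell as well, from 833 to 461 without BRAF library 2 and to 698 of 18704 genes with no filter. They also fell steeply without either labelled library, which leaves a single library in that group. The drop of the list in those settings is therefore not read as a result about the 36 genes. Ddx58, Oasl2, Trim30a and Ifi44 were called in all 21 alternative settings. In bulk RNA, more cells that express a gene and more RNA per cell cannot be told apart.

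The labelled CDX2KO_BRAF libraries were also compared with SMAD4KO_BRAF directly, a comparison that uses no BRAF library as a reference and tests whether the 2 labelled groups differ. All 36 log2 differences were positive, from 0.51 to 4.40 with a median of 2.50, and the median over all genes was 0.02. In this comparison 6.6% of all genes were called higher and 5.01% lower. Of the 36 genes 32 were called higher, and all 36 had an unadjusted p under 0.05. Every labelled library lay above every SMAD4KO_BRAF library in all 36, which held for 25.1% of all genes. The 4 genes that were not called were Ifit1 (adjusted p = 0.0649), Dtx3l (0.0737), Rsad2 (0.0784) and Ifi27 (0.139).

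By sign, all 36 genes stood on opposite sides of BRAF in the 2 groups labelled as deletions, negative in SMAD4KO_BRAF and positive in the libraries labelled CDX2KO_BRAF. No gene passed the test on both sides, and both comparisons share the BRAF libraries, so the direct comparison bears the difference between the 2 labelled groups, and by it 32 of the 36 differed. Of these 32, 23 also passed against BRAF and 9 did not, namely Stat2, Zbp1, Oasl1, Ifit2, Isg15, Usp18, Herc6, Parp14 and Xaf1. The count of 32 fell to 18 without CDX2KO_BRAF library 0 and to 14 without CDX2KO_BRAF library 1. Higher calls over all genes also fell steeply in both of these settings, which leave a single labelled library. The drop of the list there is therefore not read as a result about the 36 genes. The 14 genes that were called in all 21 alternative settings were Irf7, Ddx58, Ifih1, Dhx58, Oas1a, Oas2, Oas3, Oasl2, Trim30a, Parp12, Bst2, Cmpk2, Eif2ak2 and Ifi44. Where leaving out 1 library ended a direct call, its adjusted p lay between 0.0507 and 0.240. Ifit2 was the one gene whose sign changed in any setting. Its difference between SMAD4KO_BRAF and BRAF was -0.39, against 0.04 without BRAF library 0 and 0.10 in female libraries alone.

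**Figure D2:**
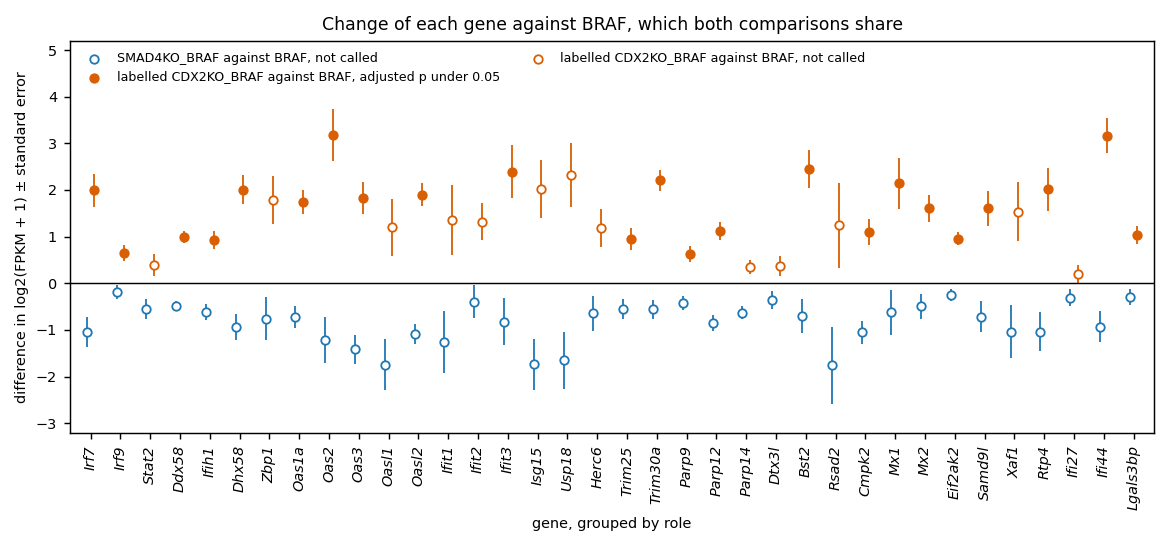
Difference in log2(FPKM + 1) against BRAF for each of the 36 genes, with bars of ± 1 standard error and filled points where the adjusted p is under 0.05. Every SMAD4KO_BRAF point lies below 0 and none is filled, while every point for the libraries labelled CDX2KO_BRAF lies above 0 and 23 are filled.

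Among the transcription factors, Irf7, which amplifies the type I response, had the widest differences, and 2 of the 3 rose in the libraries labelled CDX2KO_BRAF against BRAF. In library order its FPKM was 79.2, 36.2 and 50.4 in BRAF, 32.4, 27.4 and 17.7 in SMAD4KO_BRAF and 242 and 185 in the libraries labelled CDX2KO_BRAF. The 3 groups did not overlap. Irf7 rose 3.86-fold by mean FPKM in the labelled libraries against BRAF (1.99 ± 0.36, adjusted p = 0.0132) and 8.26-fold against SMAD4KO_BRAF (3.03 ± 0.36, adjusted p = 0.00357), while its ratio in SMAD4KO_BRAF against BRAF was 0.467 (-1.04 ± 0.32, adjusted p = 0.262). Irf9, the DNA-binding subunit of the STAT complex, was at 22.8, 19.3 and 23.0 in BRAF, 23.1, 15.4 and 18.7 in SMAD4KO_BRAF and 33.5 and 35.7 in the labelled libraries, and it rose in the latter against BRAF (0.65 ± 0.17, adjusted p = 0.0453). Stat2, which carries the activation domain of that complex, ranged from 18.1 to 24.6 in BRAF and 11 to 15.8 in SMAD4KO_BRAF, and stood at 21.4 and 34.4 in the labelled libraries. Stat2 did not pass against BRAF (0.39 ± 0.24, adjusted p = 0.33) and passed in the direct comparison (0.95 ± 0.24, adjusted p = 0.0467). Against BRAF the call of Irf7 ended without either labelled CDX2KO_BRAF library (adjusted p 0.0664 to 0.0921) and that of Irf9 without any BRAF library, SMAD4KO_BRAF library 2 or either labelled CDX2KO_BRAF library (adjusted p 0.0743 to 0.203). The direct call of Stat2 ended without any BRAF library, any SMAD4KO_BRAF library or CDX2KO_BRAF library 1 (adjusted p 0.0518 to 0.223).

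The sensors Ddx58 (RIG-I) and Ifih1 (MDA5) detect viral RNA in the cytoplasm, Dhx58 (LGP2) modulates them, and Zbp1 binds nucleic acid in the Z form. Of these 4 sensors, 3 rose against BRAF in the libraries labelled CDX2KO_BRAF. Ddx58 varied little within groups, with an FPKM of 15.7, 12.3 and 14.3 in BRAF, 10.4, 9.26 and 9.67 in SMAD4KO_BRAF and 29.6 and 28.0 in the libraries labelled CDX2KO_BRAF. Ddx58 rose to 2.04 times BRAF in the labelled libraries (0.99 ± 0.12, adjusted p = 0.00341), which was 2.95 times SMAD4KO_BRAF (1.47 ± 0.12, adjusted p = 0.00103). Ifih1 stood at 24.2, 15.2 and 15.8 in BRAF, 12.2, 10.8 and 11.4 in SMAD4KO_BRAF and 35.7 and 34.3 in the labelled libraries, where it rose against BRAF (0.92 ± 0.19, adjusted p = 0.0219). Dhx58 was at 9.87, 4.86 and 9.02 in BRAF, 4.53, 3.84 and 2.41 in SMAD4KO_BRAF and 30.3 and 37.3 in the labelled libraries, and rose 4.26-fold (2.01 ± 0.31, adjusted p = 0.00752). In all 3 of these genes the groups did not overlap. Zbp1 reached 62.8 and 63.8 in the labelled libraries against 23.3, 15.7 and 15.2 in BRAF and 18.6, 4.07 and 12.6 in SMAD4KO_BRAF, and its difference from BRAF did not pass (1.78 ± 0.51, adjusted p = 0.0629). Against BRAF the call of Ifih1 ended without BRAF libraries 1 or 2 or either labelled CDX2KO_BRAF library (adjusted p 0.0517 to 0.12) and that of Dhx58 without CDX2KO_BRAF library 1 (adjusted p 0.0712).

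OAS enzymes sense double-stranded RNA and make short oligoadenylates that activate RNase L, and 4 of the 5 OAS genes rose against BRAF. Oas2 had the largest log2 difference of the list in both comparisons that involve the libraries labelled CDX2KO_BRAF. Its FPKM was 10.3, 1.84 and 5.50 in BRAF, 2.79, 1.39 and 0.823 in SMAD4KO_BRAF and 55.3 and 50.4 in the labelled libraries. BRAF library 1 lay within the SMAD4KO_BRAF range, and the labelled libraries lay far above both groups. Oas2 rose 8.97-fold against BRAF (3.18 ± 0.55, adjusted p = 0.0115), and the labelled libraries stood 31.7-fold above SMAD4KO_BRAF (4.40 ± 0.55, adjusted p = 0.00446). Its neighbour Oas3 was at 16.9, 8.72 and 10.3 in BRAF, 4.68, 4.87 and 2.11 in SMAD4KO_BRAF and 43.1 and 44.6 in the labelled libraries, with 3 separate ranges. Oas3 rose against BRAF (1.84 ± 0.34, adjusted p = 0.0146), as did Oas1a, whose FPKM was 20.8, 12.8 and 20.6 in BRAF, 12.1, 10.8 and 8.30 in SMAD4KO_BRAF and 72.1 and 52.4 in the labelled libraries (1.74 ± 0.26, adjusted p = 0.00614). Against BRAF the call of Oas2 ended without either labelled CDX2KO_BRAF library (adjusted p 0.0738 to 0.0781) and that of Oas3 likewise (adjusted p 0.0804 to 0.0963), while that of Oas1a ended without CDX2KO_BRAF library 0 (adjusted p 0.0508).

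The OAS-like genes Oasl1 and Oasl2 are neighbours in the genome and differed in how closely their libraries lay together. Oasl2 was at 34.8, 22.7 and 34.3 in BRAF, 14.5, 16.8 and 10.3 in SMAD4KO_BRAF and 109 and 121 in the libraries labelled CDX2KO_BRAF, and rose 3.76-fold against BRAF (1.90 ± 0.25, adjusted p = 0.00401). Oasl1, which lacks the synthetase activity, was at 141, 38.8 and 39.0 in BRAF, where library 0 stood above CDX2KO_BRAF library 0, at 27.2, 17.9 and 10.3 in SMAD4KO_BRAF and at 125 and 153 in the labelled libraries. Oasl1 did not pass against BRAF (1.2 ± 0.61, adjusted p = 0.246) and passed in the direct comparison (2.94 ± 0.61, adjusted p = 0.024). That direct call ended without SMAD4KO_BRAF libraries 1 or 2 or either labelled CDX2KO_BRAF library (adjusted p 0.0555 to 0.135).

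IFIT proteins bind viral RNA that lacks the marks of host messenger RNA, and all 3 IFIT genes of the list varied widely within BRAF. Ifit3 alone rose against BRAF in the libraries labelled CDX2KO_BRAF. Ifit1 had an FPKM of 41.4, 6.46 and 19.2 in BRAF, 8.37, 11.8 and 2.94 in SMAD4KO_BRAF and 51.0 and 42.3 in the libraries labelled CDX2KO_BRAF. BRAF library 0 nearly reached the labelled libraries, and neither the difference from BRAF (1.35 ± 0.74, adjusted p = 0.279) nor the direct one (2.61 ± 0.74, adjusted p = 0.0649) passed. Ifit3 was at 5.49, 0.975 and 3.86 in BRAF, 1.76, 2.02 and 0.358 in SMAD4KO_BRAF and 15.0 and 26 in the labelled libraries, and rose 5.96-fold against BRAF (2.39 ± 0.57, adjusted p = 0.0336), a call that ended without BRAF library 2 or either labelled CDX2KO_BRAF library (adjusted p 0.0699 to 0.191). Ifit2 was low in all libraries, at 2.95, 0.510 and 0.687 in BRAF, 0.533, 0.806 and 0.610 in SMAD4KO_BRAF and 4.00 and 4.83 in the labelled libraries. It missed the threshold against BRAF (1.32 ± 0.40, adjusted p = 0.07) and passed against SMAD4KO_BRAF (1.71 ± 0.40, adjusted p = 0.035), which ended without BRAF library 2, any SMAD4KO_BRAF library or either labelled CDX2KO_BRAF library (adjusted p 0.0524 to 0.169).

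ISG15 is a ubiquitin-like protein that is joined to other proteins, Herc6 joins it in the mouse, and Usp18 removes it and also restrains the type I receptor. None of these 3 passed against BRAF, and all 3 passed against SMAD4KO_BRAF. Isg15 was at 90.5, 23.9 and 39.1 in BRAF, 16.5, 19.4 and 5.89 in SMAD4KO_BRAF and 184 and 179 in the libraries labelled CDX2KO_BRAF. Although the 3 groups did not overlap, the spread within BRAF was wide, and the 3.54-fold difference from BRAF did not pass (2.02 ± 0.62, adjusted p = 0.0745). Against SMAD4KO_BRAF it was 13.0-fold higher and passed (3.75 ± 0.62, adjusted p = 0.0114). Usp18 showed the same contrast, at 27.9, 4.46 and 14.9 in BRAF, 6.57, 2.74 and 1.89 in SMAD4KO_BRAF and 67.5 and 66.6 in the labelled libraries, with 2.32 ± 0.68, adjusted p = 0.0662 against BRAF and 3.97 ± 0.68, adjusted p = 0.0131 against SMAD4KO_BRAF. Herc6 was at 1.67 to 6.25 in BRAF, 1.12 to 2.22 in SMAD4KO_BRAF, and 10.7 and 7.42 in the labelled libraries, and passed against SMAD4KO_BRAF only (1.83 ± 0.41, adjusted p = 0.033; 0.107 against BRAF). The direct call of Isg15 ended without either labelled CDX2KO_BRAF library (adjusted p 0.0719 to 0.081) and that of Usp18 likewise (adjusted p 0.0817 to 0.0886). For Herc6 it ended without BRAF library 2, any SMAD4KO_BRAF library or either labelled CDX2KO_BRAF library (adjusted p 0.0602 to 0.191).

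Trim30a, a TRIM protein of the mouse that dampens NF-kB signalling, had the smallest adjusted p of the list against BRAF. Its FPKM was 3.49, 2.49 and 1.65 in BRAF, 1.52, 1.52 and 1.05 in SMAD4KO_BRAF and 14.6 and 15.4 in the libraries labelled CDX2KO_BRAF, 5.90 times BRAF (2.21 ± 0.23, adjusted p = 0.00179) and 11 times SMAD4KO_BRAF (2.77 ± 0.23, adjusted p = 0.00103). Trim25, a ubiquitin ligase that acts on RIG-I, was at 64.3, 38.9 and 43.9 in BRAF, 40.3, 30.9 and 27.3 in SMAD4KO_BRAF and 85.9 and 101 in the labelled libraries. It rose against BRAF (0.95 ± 0.25, adjusted p = 0.044), a call that ended without BRAF libraries 1 or 2, SMAD4KO_BRAF libraries 1 or 2 or either labelled CDX2KO_BRAF library (adjusted p 0.0562 to 0.214).

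PARP enzymes add ADP-ribose to proteins, and Parp9 acts together with the ubiquitin ligase Dtx3l. This group had the smallest differences from BRAF by its median, 0.50 over 4 genes. Parp12 was at 36.1, 24.4 and 25.9 in BRAF, 18.1, 13.8 and 14 in SMAD4KO_BRAF and 66.6 and 59.7 in the libraries labelled CDX2KO_BRAF, where it rose 2.19-fold (1.12 ± 0.19, adjusted p = 0.0113). Parp9 was at 28.4, 29.0 and 30.9 in BRAF, 19.5, 19.0 and 27.6 in SMAD4KO_BRAF and 45.6 and 46.5 in the labelled libraries, and rose (0.63 ± 0.16, adjusted p = 0.0456). Parp14 differed more on the SMAD4KO_BRAF side, with an FPKM of 30.8, 25.7 and 27.3 in BRAF, 18.2, 15.7 and 19.3 in SMAD4KO_BRAF (-0.63 ± 0.14, adjusted p = 0.179) and 31.5 and 40.9 in the labelled libraries (0.35 ± 0.15, adjusted p = 0.178). Dtx3l ranged over 21.8 to 22.6 in BRAF, 14.1 to 23.8 in SMAD4KO_BRAF and 26.3 to 32.0 in the labelled libraries, and passed in no comparison. The genes of Parp9 and Dtx3l overlap in the RefSeq annotation, and the counting is not stated to have used strand, so reads from the overlap cannot be told apart. Against BRAF the call of Parp12 ended without either labelled CDX2KO_BRAF library (adjusted p 0.0656 to 0.0784) and that of Parp9 without any BRAF library or either labelled CDX2KO_BRAF library (adjusted p 0.0948 to 0.19).

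Among the other antiviral effectors, 6 of 7 rose in the libraries labelled CDX2KO_BRAF against BRAF. Bst2 (tetherin), which holds budding virus at the cell surface, was at 43.5, 27.4 and 29.9 in BRAF, 29.7, 13.9 and 19.1 in SMAD4KO_BRAF and 269 and 126 in the labelled libraries. Both labelled libraries lay above all others although library 0 stood well above library 1, and Bst2 rose 5.88-fold against BRAF (2.45 ± 0.41, adjusted p = 0.00961). Eif2ak2 (PKR), a kinase that stops translation on double-stranded RNA, was at 21.7, 19.7 and 22.2 in BRAF, 15.0, 18.5 and 19.8 in SMAD4KO_BRAF and 45.4 and 38.7 in the labelled libraries, where it rose (0.96 ± 0.14, adjusted p = 0.00656). Samd9l, which restrains viral and cell growth, was at 13.8 to 30.8 in BRAF, 8.68 to 14.7 in SMAD4KO_BRAF, and 70.8 and 47.9 in the labelled libraries (1.60 ± 0.38, adjusted p = 0.0323). Against BRAF the call of Bst2 ended without CDX2KO_BRAF library 0 (adjusted p 0.0593) and that of Eif2ak2 likewise (adjusted p 0.0526). For Samd9l it ended without BRAF libraries 1 or 2, SMAD4KO_BRAF library 1 or either labelled CDX2KO_BRAF library (adjusted p 0.0509 to 0.191).

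Rsad2 (viperin), which makes a chain-terminating nucleotide, and its neighbour Cmpk2, a mitochondrial nucleotide kinase, differed in spread. Rsad2 had the widest spread of the list, at 24.8, 1.72 and 7.80 in BRAF, 3.14, 1.76 and 0.409 in SMAD4KO_BRAF and 12.1 and 30.0 in the libraries labelled CDX2KO_BRAF. BRAF library 0 lay above CDX2KO_BRAF library 0, and Rsad2 passed in no comparison (1.24 ± 0.92, adjusted p = 0.415 against BRAF). Cmpk2 was at 17.2, 8.64 and 13.3 in BRAF, 6.24, 5.19 and 5.32 in SMAD4KO_BRAF and 23.0 and 34.0 in the labelled libraries, in 3 separate ranges. It rose against BRAF (1.09 ± 0.28, adjusted p = 0.0419) and was higher in the direct comparison (2.14 ± 0.28, adjusted p = 0.00487). The GTPases Mx1 and Mx2, which RefSeq lists as transcribed pseudogenes in its reference strain, rose against BRAF as well. Mx1 was at 9.59, 2.67 and 4.31 in BRAF, 4.15, 2.34 and 2.27 in SMAD4KO_BRAF and 14.7 and 42.4 in the labelled libraries (2.14 ± 0.55, adjusted p = 0.043), and its 2 labelled libraries lay farther apart by ratio than those of any other gene of the list. Mx2 was at 1.44 to 3.69 in BRAF, 1.25 to 1.58 in SMAD4KO_BRAF, and 7.59 and 11.4 in the labelled libraries (1.61 ± 0.29, adjusted p = 0.0129). The call of Cmpk2 against BRAF ended without BRAF libraries 1 or 2, any SMAD4KO_BRAF library or either labelled CDX2KO_BRAF library (adjusted p 0.0566 to 0.228). For Mx1 it ended without BRAF libraries 1 or 2, any SMAD4KO_BRAF library or CDX2KO_BRAF library 1 (adjusted p 0.0533 to 0.228), and for Mx2 without CDX2KO_BRAF library 1 (adjusted p 0.101).

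Of the remaining 5 genes 3 rose against BRAF, and Ifi44, which interferon induces strongly, had the largest fold over BRAF. Its FPKM was 4.83, 4.2 and 5.01 in BRAF, 2.66, 0.843 and 2.92 in SMAD4KO_BRAF and 67.1 and 37.0 in the libraries labelled CDX2KO_BRAF, which is 11.1 times BRAF (3.17 ± 0.37, adjusted p = 0.00267) and 24.3 times SMAD4KO_BRAF (4.09 ± 0.37, adjusted p = 0.00132). Rtp4, a chaperone of membrane receptors, was at 16.6, 5.81 and 12.6 in BRAF, 6.62, 6.07 and 2.48 in SMAD4KO_BRAF and 47.5 and 45.9 in the labelled libraries, where it rose (2.02 ± 0.46, adjusted p = 0.0299). Lgals3bp, a secreted glycoprotein that binds galectins, was the most abundant of the list per length, at 324, 236 and 290.4 in BRAF, 273, 213 and 209 in SMAD4KO_BRAF and 579.6 and 579 in the labelled libraries (1.04 ± 0.19, adjusted p = 0.0144). Xaf1, which binds the apoptosis inhibitor XIAP, ranged over 3.10 to 17.3 in BRAF, 2.01 to 4.86 in SMAD4KO_BRAF and 16.9 to 37.0 in the labelled libraries and did not pass against BRAF (1.53 ± 0.64, adjusted p = 0.164). Ifi27, a mitochondrial membrane protein, had the smallest difference of the list from BRAF in the labelled libraries (0.20 ± 0.20, adjusted p = 0.539), with ranges of 23.5 to 33.1, 18.9 to 26 and 28.9 to 36.9 in the order BRAF, SMAD4KO_BRAF and labelled CDX2KO_BRAF. Against BRAF the call of Rtp4 ended without BRAF library 2 or either labelled CDX2KO_BRAF library (adjusted p 0.0667 to 0.142) and that of Lgals3bp without either labelled CDX2KO_BRAF library (adjusted p 0.081 to 0.0935).

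Within BRAF the genes tended to rank the libraries alike. BRAF library 0 was the highest of its group in 31 of the 36 genes and BRAF library 1 the lowest in 32, while over all genes tested these shares were 41.0% and 42.9%. In SMAD4KO_BRAF library 0 was the highest in 21 and library 2 the lowest in 21, while over all genes these shares were 41.7% and 30.9%. The labelled CDX2KO_BRAF libraries split 17 to 19. The median of the 36 genes, as log2(FPKM + 1) relative to the mean of BRAF, came to 0.41, -0.39 and 0.02 for BRAF in library order. It came to -0.55, -0.76 and -0.88 for SMAD4KO_BRAF, and to 1.42 and 1.40 for the libraries labelled CDX2KO_BRAF. So each SMAD4KO_BRAF library lay below each BRAF library by this median, and both labelled libraries lay above the other 6. The median ratio of the highest to the lowest library was 1.96 in BRAF, 1.69 in SMAD4KO_BRAF and 1.21 in the labelled libraries. BRAF library 0 and SMAD4KO_BRAF library 0 came from male mice by their Y-linked genes and the other 6 from female mice. Among female libraries alone the median difference of the list from BRAF was 1.90 in the labelled libraries, and 27 genes rose, with 650 of all 12084 genes called higher in that setting.

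The other genes of the pathway, in lists made for this account, were read next, beginning with the ligands. Of 21 interferon genes in the table none passed the filter, and 14, among them Ifnb1, were listed at 0 in every library. The summed FPKM of the ligands was 0.312 to 1.08 in BRAF, 0.0909 to 0.523 in SMAD4KO_BRAF, and 0 and 0.0547 in the libraries labelled CDX2KO_BRAF. The highest single value was 0.930 for Ifng, the type II interferon of T cells, in BRAF library 1. Without counts, a value listed at 0 does not show that a gene is silent.

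Of the 6 receptor genes none rose in any comparison. The type III receptor subunit Ifnlr1 ranged over 10.4 to 16.6 in BRAF, 7.52 to 13.3 in SMAD4KO_BRAF and 8.49 to 10.7 in the libraries labelled CDX2KO_BRAF (-0.34 ± 0.28, adjusted p = 0.461 against BRAF). Its partner Il10rb (-0.30, adjusted p = 0.428), the type I subunits Ifnar1 (-0.40, 0.104) and Ifnar2 (-0.13, 0.773) and the type II subunit Ifngr1 (0.33, 0.505) did not pass either. Ifngr2, the other type II subunit, fell against BRAF (-0.79 ± 0.20, adjusted p = 0.0446), a call that ended without BRAF libraries 0 or 2, SMAD4KO_BRAF libraries 1 or 2 or either labelled CDX2KO_BRAF library (adjusted p 0.0601 to 0.212). Against BRAF 7.21% of all genes were called lower, and 1 call among 6 receptor genes is not read as a result about the list. No JAK or STAT gene of 5 was called in any comparison.

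Of the 6 other interferon regulatory factors, Irf2, a repressor of the response, fell in the libraries labelled CDX2KO_BRAF against BRAF (-0.48 ± 0.10, adjusted p = 0.0251), a call that ended without any BRAF library or either labelled CDX2KO_BRAF library (adjusted p 0.0561 to 0.156). Of 12 adaptors and kinases of nucleic acid sensing, Irak1, a kinase below the Toll-like receptors, rose against BRAF (0.56 ± 0.13, adjusted p = 0.0365) and Myd88, their adaptor, was higher in the direct comparison (0.42 ± 0.11, adjusted p = 0.0488). The call of Irak1 ended without any BRAF library, SMAD4KO_BRAF library 2 or either labelled CDX2KO_BRAF library (adjusted p 0.0594 to 0.199), and that of Myd88 without any 1 of the 8 libraries (adjusted p 0.0571 to 0.2). Of 14 inhibitors, 2 rose against BRAF. Adar, which edits double-stranded RNA so that it is not sensed, was at 20.3, 17.4 and 19.1 in BRAF, 16, 15.8 and 17.7 in SMAD4KO_BRAF and 32.8 and 32.6 in the labelled libraries (0.76 ± 0.11, adjusted p = 0.00509). Socs3, a brake on cytokine receptors, was at 18.8, 15.4 and 18.0 in BRAF, 20.9, 26.2 and 13.1 in SMAD4KO_BRAF and 40.5 and 44.8 in the labelled libraries (1.25 ± 0.26, adjusted p = 0.0213), a call that ended without BRAF libraries 1 or 2 or either labelled CDX2KO_BRAF library (adjusted p 0.0562 to 0.131). In the direct comparison 5 of the 14, Socs3, Usp25, Tnfaip3, Adar and Trex1, were called higher, of which Adar alone was called without any single library. No gene of these 3 lists was called in SMAD4KO_BRAF against BRAF. Over all genes 6.89% were called higher and 7.21% lower in the labelled libraries against BRAF, and 6.6% higher in the direct comparison. The single calls of Irf2, Irak1 and Myd88 are not read as results about their lists.

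**Figure D3:**
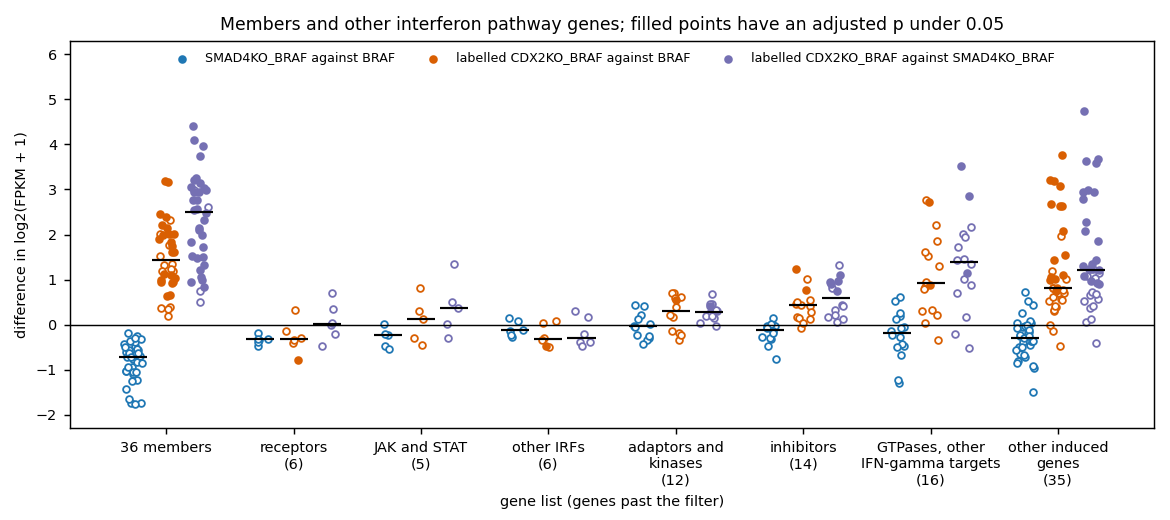
Difference in log2(FPKM + 1) for the 36 genes and the tested genes of 7 other lists of the pathway in 3 comparisons, with 1 point per gene, black lines at the medians and filled points where the adjusted p is under 0.05. Filled points are common in the 36 genes and in the list of other induced genes, and sparse among receptors, JAK and STAT genes and regulatory factors.

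The list of other interferon-induced genes held many calls. Over all genes 6.89% were called higher against BRAF and 6.6% in the direct comparison. Of 35 tested, 16 rose in the libraries labelled CDX2KO_BRAF against BRAF and none fell, with a median of 0.82, and 21 were higher in the direct comparison. In SMAD4KO_BRAF against BRAF none was called and 28 of 35 were negative, with a median of -0.29. Ly6e, a membrane protein that affects viral entry, was at 56.8, 50.6 and 53.7 in BRAF, 63.6, 52.3 and 80.4 in SMAD4KO_BRAF and 502 and 500.5 in the labelled libraries (3.20 ± 0.18, adjusted p = 0.000215). Slfn2, a Schlafen gene of cell quiescence, was at 9.76, 9.89 and 12.6 in BRAF, 8.94, 5.48 and 7.95 in SMAD4KO_BRAF and 105 and 106 in the labelled libraries (3.19 ± 0.20, adjusted p = 0.000337). Sp100, a nuclear body protein, was at 9.03, 10.8 and 6.81 in BRAF, 5.48, 3.51 and 6.11 in SMAD4KO_BRAF and 38.5 and 41.7 in the labelled libraries (2.08 ± 0.24, adjusted p = 0.00258). All 3 were called against BRAF in each of the 21 alternatives, as were Slfn5, Phf11d, Znfx1 and Epsti1, so 7 of the 16 in all. The other 9 were Ifitm2, Pml, Trim34a, Tor3a, Slfn4, Slfn9, Parp11, Isg20 and Ddx60, and each of these calls ended without at least 1 library. The 16 log2 differences ran from 0.74 for Pml to 3.77 for Slfn4. Called in the direct comparison and not against BRAF were Ifi35, Nmi, Helz2, Tdrd7, Ube2l6, Apol9a and Apol9b, and each of these 7 calls ended without at least 1 library. Of the 21 direct calls 10 held in all alternatives.

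GTPases and other targets of interferon gamma were read beside the share of 6.89% called higher over all genes. Of 16 tested 2, Gbp3 (2.73 ± 0.30, adjusted p = 0.00209) and Cxcl9 (0.88 ± 0.22, adjusted p = 0.0397) rose in the libraries labelled CDX2KO_BRAF against BRAF. The difference from other lists was not tested. In the direct comparison Cxcl10, a chemokine of the response, was also called (3.51 ± 0.75, adjusted p = 0.0263). Per library the median of this list relative to BRAF was -0.19, 0.49 and -0.30 in BRAF, -0.55, -0.53 and 0.86 in SMAD4KO_BRAF and 0.85 and 1.09 in the labelled libraries. SMAD4KO_BRAF library 2 thus stood with the labelled libraries in this list, while it was the lowest of all 8 in the median of the 36 genes. The GTPase Igtp, for example, had values of 8.55, 3.67 and 52.3 over the SMAD4KO_BRAF libraries and 30.3 and 41.8 in the labelled ones, and was named after its values were seen. The call of Cxcl9 against BRAF ended without BRAF libraries 0 or 2, SMAD4KO_BRAF libraries 0 or 2 or either labelled CDX2KO_BRAF library (adjusted p 0.0529 to 0.207) and that of Cxcl10 without any SMAD4KO_BRAF library or either labelled CDX2KO_BRAF library (adjusted p 0.0571 to 0.152).

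Several of the 36 genes have near copies, between which 50 bp reads may be divided. Of 11 such copies tested, 3 rose in the libraries labelled CDX2KO_BRAF against BRAF and 1 fell. Over all genes 6.89% were called higher and 7.21% lower in that comparison. Ifit1bl1, listed as Gm14446 and overlapping Ifit1 in RefSeq, was at 62.6, 11.4 and 34.9 in BRAF, 13.5, 12.2 and 7.22 in SMAD4KO_BRAF and 216 and 211 in the labelled libraries (2.82 ± 0.62, adjusted p = 0.0262). Ifit3b, listed as I830012O16Rik, also rose (2.08 ± 0.35, adjusted p = 0.0103), as did Ifi27l2a, which overlaps Ifi27 (3.51 ± 0.57, adjusted p = 0.009). Ifi27 itself and Ifi27l2a thus differed in their call, and reads of the overlap cannot be assigned without strand. The OAS gene Oas1e fell (-1.17 ± 0.31, adjusted p = 0.0465) from a low level, at 0.502 to 2.01 in BRAF and at most 0.0473 in the labelled libraries. The call of Gm14446 ended without BRAF library 2 or either labelled CDX2KO_BRAF library (adjusted p 0.0621 to 0.132), that of I830012O16Rik without CDX2KO_BRAF library 1 (adjusted p 0.0854) and that of Ifi27l2a without CDX2KO_BRAF library 0 (adjusted p 0.069). For Oas1e it ended without BRAF libraries 0 or 1, any SMAD4KO_BRAF library or either labelled CDX2KO_BRAF library (adjusted p 0.064 to 0.188). In the direct comparison Oas1b (1.58 ± 0.31, adjusted p = 0.0205) and Oas1g (2.09 ± 0.35, adjusted p = 0.012), copies of Oas1a, were called with Gm14446, I830012O16Rik and Ifi27l2a, and none of the 5 calls held without each single library. In RefSeq, Stat2 also overlaps Apof, Rtp4 overlaps Masp1 and Eif2ak2 overlaps Gm26637.

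Markers of other cells moved between libraries, and their part in the results was not tested. The summed FPKM of 12 genes of T cells and intraepithelial lymphocytes, led by the granzyme gene Gzma, was 37.3 to 1061 in BRAF, 55.7 to 512 in SMAD4KO_BRAF and 16.4 to 73.6 in the libraries labelled CDX2KO_BRAF. BRAF library 1, the lowest of its group in 32 of the 36 interferon response genes, was the highest of all 8 in these markers. The 12 mesenchymal genes, led by Vim, summed to 10.9 to 124 in BRAF, 12.8 to 49.7 in SMAD4KO_BRAF and 4.74 to 20.3 in the labelled libraries. Genes of macrophages and other myeloid cells, led by Cd14, summed to 17.6 to 110, 23.3 to 67.3 and 24.1 to 33.8 in the same order, and those of dendritic cells, led by Bst1, to 28.7 to 54.2, 18.2 to 28.4 and 8.34 to 9.93. Of 9 tested myeloid genes 8 were lower in value in the labelled libraries than in BRAF, with a median of -0.91, while Cd14 rose (0.92 ± 0.19, adjusted p = 0.0213), a call that ended without BRAF libraries 0 or 2 or either labelled CDX2KO_BRAF library (adjusted p 0.0589 to 0.122). Endothelial genes, led by Pecam1, summed to under 1 in every library, with Emcn at 0. Genes of B cells and plasma cells, led by Sdc1, summed to 62.6 to 95.5, 75.8 to 101 and 116 to 125. Sdc1, which epithelium also makes, carries most of that sum. Of the 4 genes of this list that passed the filter 3 were lower in value than in BRAF, with a median of -0.60, and by the median of the list the labelled libraries, at -0.77 and -0.44, were not high. No other marker of these lists was at 0 in every library. Among the 10 dendritic cell genes the highest single value was 52.1, beside a highest sum of 54.2, so 1 gene can carry most of that sum. Only 4 of them passed the filter, of which 3 were lower in value in the labelled libraries than in BRAF. Among these Bst1 was called lower, beside 7.21% of all genes. The median of these 4 relative to BRAF was -0.37, 0.51 and -0.19 in BRAF. It was -0.57, -0.10 and 0.50 in SMAD4KO_BRAF and -0.93 and -0.54 in the labelled libraries, so by median the groups overlapped.

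The epithelium itself also differed in its markers. The epithelial genes, led by Krt19, summed to 8050 to 11413 in BRAF, 6784 to 9754 in SMAD4KO_BRAF and 8590 to 9966 in the libraries labelled CDX2KO_BRAF, and none was at 0. Genes of crypt base and dividing cells, led by the Paneth cell defensin Defa24, summed to 7997 to 14065, 13843 to 20792 and 4595 to 6359 in the same order. Defa24 carries most of that sum. The median of the 10 genes in the labelled libraries against BRAF was -0.04, with 5 positive and 5 negative. In SMAD4KO_BRAF against BRAF it was 0.55, with 9 positive and 1 negative, and none was called. The 10 genes of villus enterocytes, the mature absorptive cells, led by Apoa1, had medians relative to BRAF of 0.52, -0.36 and -0.20 in BRAF, -0.69, -1.32 and -1.77 in SMAD4KO_BRAF and -1.79 and -2.54 in the labelled libraries. BRAF library 0 was the highest in this list and in the interferon response genes within its group, and library order in SMAD4KO_BRAF was the same in both lists. In the labelled libraries the 2 lists stood on opposite sides of BRAF. Of the 10 villus genes 6 were called lower there against BRAF, beside 7.21% of all genes, and none was called in SMAD4KO_BRAF. An alternative chosen after seeing the data left out the library of BRAF and of SMAD4KO_BRAF that was highest in T cell genes. There 16 of the 36 genes rose against BRAF with a median of 1.04, and 27 were higher in the direct comparison. Of all 12084 genes 465 and 400 were called higher in those comparisons, beside 833 and 797 with all libraries.

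**Figure D4:**
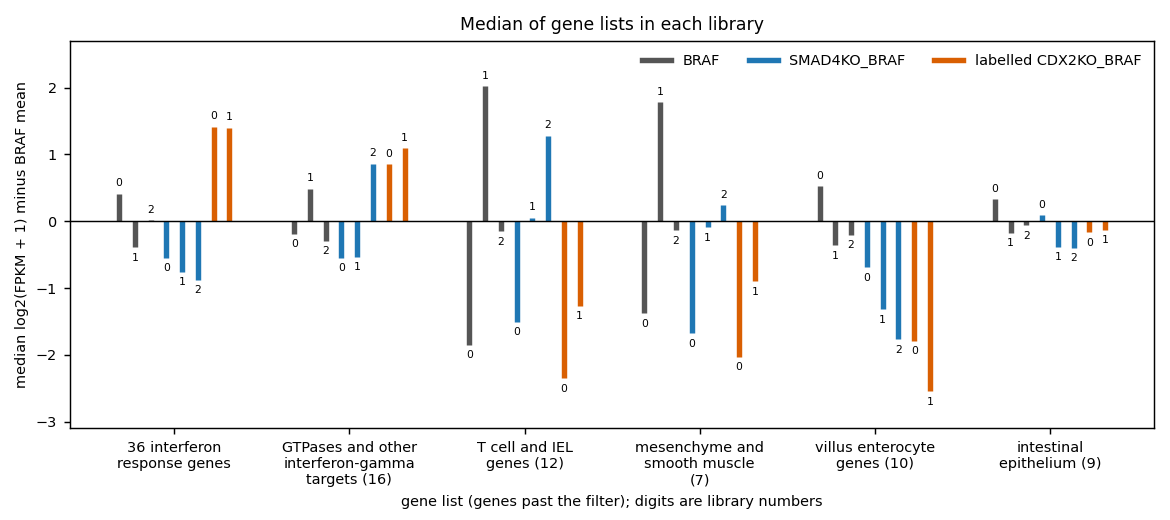
Median of log2(FPKM + 1) minus the BRAF mean for 6 gene lists, with 1 bar per library drawn from 0 and the library number at its end. The 36 interferon response genes stand at 1.42 and 1.40 in the libraries labelled CDX2KO_BRAF and below 0 in all SMAD4KO_BRAF libraries, while the T cell list is at 2.02 in BRAF library 1.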

How the data were processed

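RNA of jejunal crypts from 3 groups of mice was sequenced as 50 bp single-end reads, per the labels' protocols. The submitters' processing notes name TopHat2 2.1.0, Cuffnorm 2.2.1 and Cuffdiff 2.2.1 and the build mm9, and the authors deposited 1 table of FPKM per gene and library. The use of strand is not given in the sources used here. Columns were matched to a group by name, not to single samples, and 3 columns that match no sample were not used. Counts are not known, so sampling error could not be separated from other spread, and relative depth was read from low values.

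Values were tested as log2(FPKM + 1) with limma 3.58.1 in R 4.3.3, with 3 groups in 1 fit, a mean-variance trend, two-sided tests and Benjamini-Hochberg adjustment over 12084 genes. Adjusted p values come from that fit, except where a call is said to end. Those come from the same fit without the named library. A value with ± is a difference in log2(FPKM + 1) with its standard error, and ratios are of mean FPKM. The procedure was also run on simulated data with independent noise for each gene and library. Those data lack the shared ranking of libraries that the 36 genes showed within BRAF. Python 3.11.15 made the other tables. Beside the 36 genes, the text names every other pathway gene called in any comparison, all receptors, up to 2 further genes of a list with the smallest adjusted p, and the most abundant marker of each list and those at 0; Ifng, Ifnb1 and Igtp were named after their values were seen. The genes and lists were chosen with earlier results of these data known. There were 21 alternatives, covering pseudocount, filter, scaling, weights, sex, replicate block and single libraries, of which 1 was added after seeing the data. Promoters came from RefSeq on GRCm38.p6, a different build from that of the files, and were matched by symbol. One pathway gene is not reported here.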

Additional observations from a re-analysis of the deposited data

How the results depend on the processing

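With 3 BRAF, 3 SMAD4KO_BRAF and 2 labelled CDX2KO_BRAF libraries and no counts, single libraries carry much weight, and 2 of the 8 are from male mice. Of 210 values of 10 summaries under 21 alternatives, 177 stayed within the limits set for a stable value and 33 did not. Values as reported were 0, 23 and 32 of the 36 genes called and 9, 1704 and 1402 of all genes called, in SMAD4KO_BRAF against BRAF, CDX2KO_BRAF against BRAF and CDX2KO_BRAF against SMAD4KO_BRAF. The median of all genes stayed within 0.0694 of 0 in every setting.

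Library weights gave 13 of the 36 genes in SMAD4KO_BRAF against BRAF, and 1069, 2602 and 2447 of all genes. Without a filter, 15 of the 36 were called in CDX2KO_BRAF against BRAF, and 5 of all genes in SMAD4KO_BRAF against BRAF. With sex as a term, SMAD4KO_BRAF against BRAF gave 1 of the 36 genes and 78 of all genes, and the median difference of the 36 in CDX2KO_BRAF against BRAF was 1.72. In female mice alone these were 16 of all genes and a median of 1.90, and Ifit2 in SMAD4KO_BRAF against BRAF turned to 0.096. Without the 2 libraries highest in T cell genes, chosen after seeing the data, 19, 1030 and 702 of all genes were called, and that median was 1.04. At a minimum FPKM of 5, 35 of the 36 genes were tested, and all 35 had opposite signs.

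Leaving out 1 library at a time, the 36 genes gave 0 to 0, 7 to 26 and 14 to 33 calls in the 3 comparisons, and all genes 5 to 25, 493 to 1815 and 337 to 1397. Medians of the 36 ran from -0.95 to -0.51, 1.04 to 1.90 and 2.25 to 2.55. Ifit2 in SMAD4KO_BRAF against BRAF ran from -0.65 to 0.045. Causes were not tested.

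Replicate numbers gave no clear sign of pairing. Between BRAF and SMAD4KO_BRAF the deviations of same-numbered libraries correlated at 0.24, -0.047 and 0.0035, the first for the male libraries. Pairs with unlike numbers ran from -0.33 to 0.31. With 3 libraries per group these values cannot settle whether libraries were paired. With the replicate number as a block, 0, 16 and 25 of the 36 genes and 10, 1181 and 805 of all genes were called.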
